A study of Homo sapiens with 8 samples.

Results

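The 26S proteasome and its assembly factors were followed in a genome-wide CRISPRi growth screen, in which the abundance of each sgRNA was counted in genomic DNA. Members were chosen by name: every gene of the sgRNA table whose symbol starts with PSMA, PSMB, PSMC, PSMD or PSMG and a digit, together with POMP and ADRM1. This gave 46 of the 18903 genes tested, with 225 of the 95977 sgRNAs of the primary promoter that entered those tests, and a further 15 sgRNAs for a separate second promoter of 3 genes. Of 490 sgRNAs listed for the 46 genes, 240 had a mean count of at least 20 over the 8 libraries, and 245 had no count in any library. The members comprise 14 subunits of the 20S core, 10 of the 19S base, 8 of the 19S lid, 3 immunoproteasome subunits, 8 assembly factors and 2 tissue-restricted core subunits. The remaining member is PSMC3IP, which meets the rule by its symbol but encodes a meiotic recombination factor and no proteasome subunit.

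The cells were K562, a human leukemia line, carrying dCas9-KRAB, an inactive Cas9 fused to a repressor that lowers transcription of the gene whose promoter an sgRNA matches. All libraries came from cells transduced with the CRISPRi library and selected in 1 µg/ml puromycin for 3 days, with no further treatment given in the labels. The 4 groups were cells with mutant uL16 at day 9, mutant uL16 at day 0, wild-type uL16 at day 9 and wild-type uL16 at day 0, with 2 libraries each. uL16 is a protein of the large ribosomal subunit, encoded by RPL10. The sample titles call the mutant line delta, and the labels do not say which mutation was used. The series' text describes the uL16 proteins as stably expressed in the cell line, and whether a line is 1 clone or whether the cells' own RPL10 was altered is not given. The end of the screen is labelled day 9 and is described as 10 cell doublings. The labels number the replicates without saying whether they are separate cultures, so p-values measure the spread between these libraries, which may be technical. Since the libraries hold DNA and no RNA, the cell type could not be checked against marker genes.

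Proteins marked with ubiquitin are degraded by the 26S proteasome. In the 20S core, rings of beta subunits holding the cutting sites are stacked between outer rings of alpha subunits. The 19S particle caps the core: its base holds the ring of ATPases (PSMC genes) that unfold a substrate and push it into the core, and its lid holds the enzyme that removes the ubiquitin chain. Dedicated chaperones build the alpha ring (the PSMG proteins), the beta ring (POMP) and the base (PSMD5, PSMD9 and PSMD10). In immune cells and under interferon, 3 induced beta subunits (PSMB8, PSMB9 and PSMB10) take the place of the catalytic subunits PSMB5, PSMB6 and PSMB7. Cells that lose proteasome activity stop dividing, so sgRNAs against its needed subunits are lost from a growing culture.

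Library totals lay between 39233340 and 143585751 counts, and the median count of a kept sgRNA between 331 and 1223. Reads were amplified by PCR and carry no molecular identifiers, so they are not independent molecules and depth bounds counting error only. Control sgRNAs with no target took 1.76 to 1.84% of each library. Of 1894 control sgRNAs tested singly, 10 were called lower and 3 higher in mutant cells, and 11 lower and 6 higher in wild-type cells. Abundance is given below as CPM, each count divided by its library's total and put on a common scale, scaled by TMM, for the summed sgRNAs of a gene unless 1 sgRNA is named. Changes are log2 of day 9 over day 0, tested with edgeR's quasi-likelihood test, and a call means a Benjamini-Hochberg adjusted p under 0.05 over all 18903 genes or all sgRNAs.

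CRISPRi acts at promoters, and the promoters of 5 members that the results turn on are shown here, from 250 bases before to 50 bases after the start of the gene, read 5′ to 3′ along the gene. They are those of a lid gene with a large loss (PSMD7), a catalytic core gene and its immunoproteasome counterpart (PSMB5 and PSMB8), a base gene whose sgRNAs disagreed (PSMC4) and the member that rose (PSMD5). Sequences are from RefSeq, build GRCh38.p14, and capitals mark matches to TGACNNNGC, read on either strand, the core of the antioxidant response element through which NFE2L1 raises proteasome genes.
PSMD7 (chr16:74296564-74296863, plus strand): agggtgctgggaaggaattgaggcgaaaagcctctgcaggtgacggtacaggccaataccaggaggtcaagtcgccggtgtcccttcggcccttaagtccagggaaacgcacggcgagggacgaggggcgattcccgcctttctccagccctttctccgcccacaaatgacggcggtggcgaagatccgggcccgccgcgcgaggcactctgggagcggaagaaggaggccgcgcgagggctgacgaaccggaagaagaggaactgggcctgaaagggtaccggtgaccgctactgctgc
PSMB5 (chr14:23035171-23035470, minus strand): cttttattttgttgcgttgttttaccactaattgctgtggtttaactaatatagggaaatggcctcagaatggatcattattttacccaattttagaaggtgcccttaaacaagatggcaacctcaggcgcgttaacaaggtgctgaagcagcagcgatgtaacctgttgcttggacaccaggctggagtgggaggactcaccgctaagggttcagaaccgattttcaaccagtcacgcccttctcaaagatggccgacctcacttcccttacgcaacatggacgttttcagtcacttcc
PSMB8 (chr6:32844630-32844929, minus strand): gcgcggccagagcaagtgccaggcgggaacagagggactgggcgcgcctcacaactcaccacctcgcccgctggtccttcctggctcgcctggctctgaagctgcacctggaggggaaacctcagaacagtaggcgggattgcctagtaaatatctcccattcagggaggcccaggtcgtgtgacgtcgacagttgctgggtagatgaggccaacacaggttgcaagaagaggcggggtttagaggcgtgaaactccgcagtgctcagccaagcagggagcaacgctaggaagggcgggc
PSMC4 (chr19:39970915-39971214, plus strand): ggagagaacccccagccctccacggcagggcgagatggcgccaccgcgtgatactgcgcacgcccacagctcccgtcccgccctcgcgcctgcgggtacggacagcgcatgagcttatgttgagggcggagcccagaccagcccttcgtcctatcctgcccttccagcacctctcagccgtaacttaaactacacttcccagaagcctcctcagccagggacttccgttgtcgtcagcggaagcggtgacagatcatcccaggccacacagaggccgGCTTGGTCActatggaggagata
PSMD5 (chr9:120842873-120843172, minus strand): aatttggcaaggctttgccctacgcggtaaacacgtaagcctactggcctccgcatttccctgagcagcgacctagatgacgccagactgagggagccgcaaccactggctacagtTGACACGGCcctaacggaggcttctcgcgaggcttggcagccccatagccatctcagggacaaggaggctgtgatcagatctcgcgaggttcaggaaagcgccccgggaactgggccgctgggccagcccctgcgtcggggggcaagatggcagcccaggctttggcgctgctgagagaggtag

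Promoters were found for 40 of the 46 members. The motif TGACNNNGC, on either strand, was present in 11 of them (27.5%), against 13.6% of the 27303 promoters in the table. By part of the complex it was found in 1 of 10 promoters of the 20S core, 3 of 9 of the base, 2 of 8 of the lid, 1 of 3 of the immunoproteasome and 4 of 7 of the assembly factors. CCAAT, also on either strand, was present in 20 of 40 member promoters (50.0%), against 35.7% of all. A match of letters is a description and no binding site. No promoter entry was used for PSMA7, PSMB1, PSMB6, PSMB7, PSMD4 and PSMG3. The sgRNA positions belong to another build, so they were not placed on these sequences.

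sgRNAs against proteasome genes were lost in both lines, but not for every gene. In mutant cells, counts of 18 of 46 genes fell, against a background of 8.53% of all genes tested. In wild-type cells 20 of 46 fell, against a background of 8.7%. The median log2 change of the 46 genes was -0.32 in mutant cells and -0.28 in wild-type cells, while the median over all genes tested was 0.01 in each line. Counts of 15 genes fell in both lines: PSMA1, PSMA5, PSMA7, PSMB1, PSMB2, PSMB5, PSMB6, PSMC1, PSMC6, PSMD4, PSMD7, PSMD11, PSMG3, PSMG4 and POMP. The share of all genes that fell in both lines was not computed, so this count has no background beside it. PSMA6, PSMD6 and PSMD8 passed in mutant cells and PSMA2, PSMA3, PSMA4, PSMD13 and PSMD14 in wild-type cells. None of these 8 passed the test of the difference between the lines. A single member rose, PSMD5 in mutant cells, where 0.704% of all genes rose. No member rose in wild-type cells, where 0.868% of all genes did. Fewer members were called in a line when 1 of its day 0 libraries was left out, and fewer of all genes tested too. Such a fit leaves 1 library in that group.

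**Figure D1:**
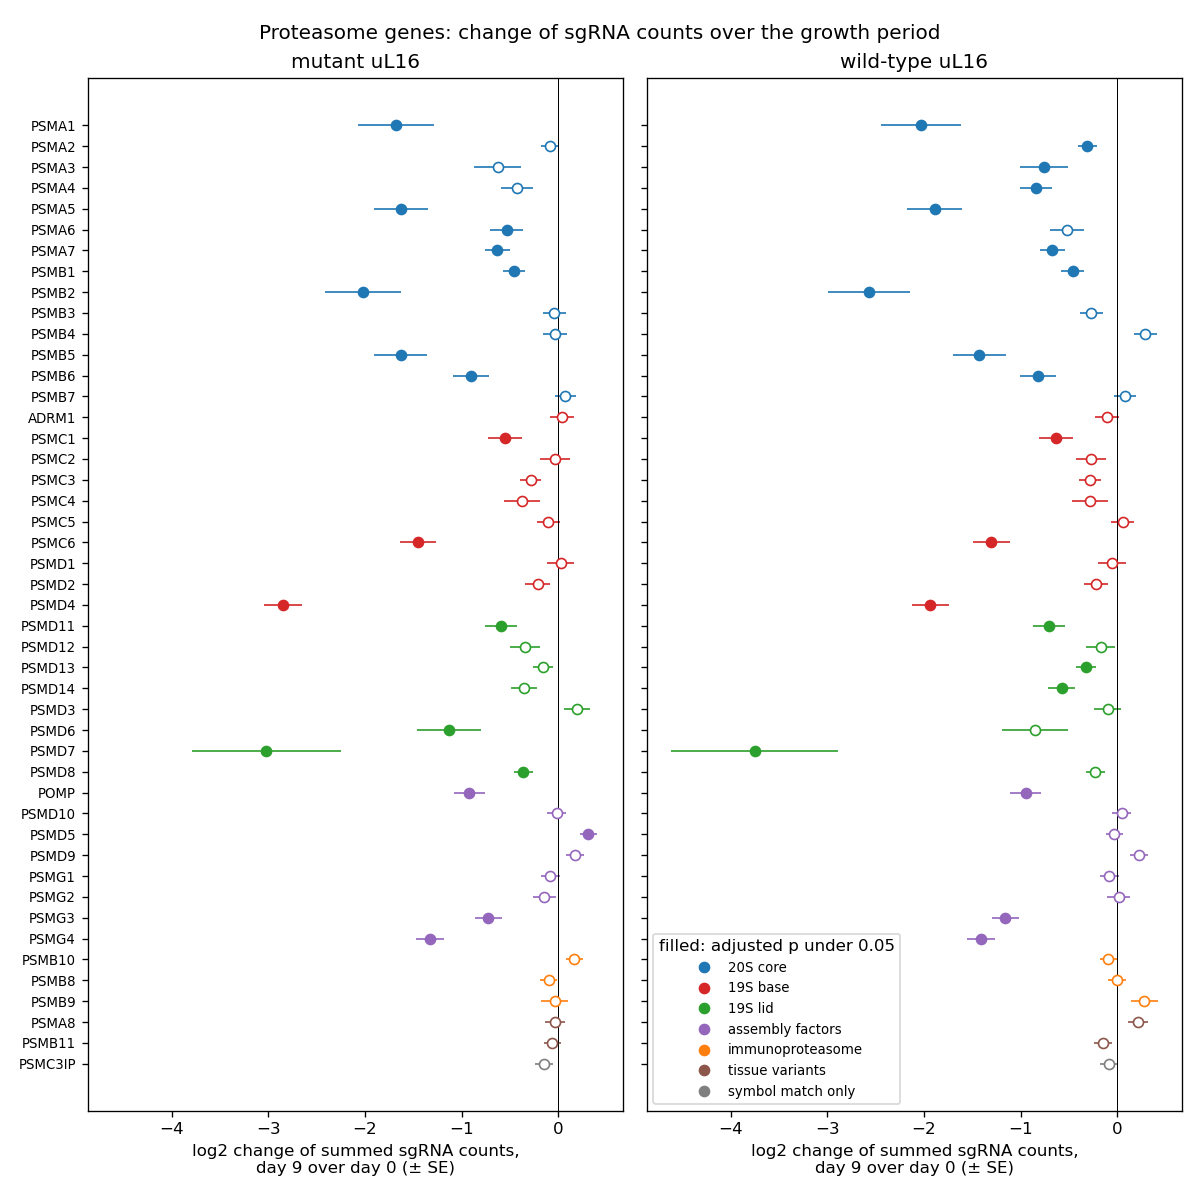
Each row is 1 of the 46 members, grouped by colour; the horizontal axis is the log2 change of its summed sgRNA counts, day 9 over day 0, with the edgeR SE as a bar, in mutant cells (left) and wild-type cells (right). Filled points passed an adjusted p of 0.05; PSMD7 and PSMD4 lie far to the left in both lines, and the immunoproteasome and tissue-restricted genes lie near 0.

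Single sgRNAs showed the same loss. Of the 225 member sgRNAs, 61 were called lower in mutant cells (27.1%), against 5.34% of all sgRNAs of tested genes. In wild-type cells 61 were called lower (27.1%), against 5.48%. The same sgRNA was lower in both lines in 47 cases, for which no share over all sgRNAs was computed. At least 2 lower sgRNAs were found for 16 members in mutant cells, against a background of 6.21% of genes, and for 19 in wild-type cells, against 6.25%. Changes in the 2 lines come from separate libraries, and across the 46 genes they had a Pearson r of 0.944 and a Spearman rho of 0.902. Both lines share the sgRNA design, so this is a description of the sgRNAs as much as of the genes.

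In the 20S core, 8 of 14 genes fell in mutant cells, with a median log2 change of -0.58, and 10 of 14 in wild-type cells, with a median of -0.72. In the alpha ring, which closes the core and docks the caps, 4 of 7 genes fell in mutant cells and 6 of 7 in wild-type cells. In the beta ring 4 of 7 fell in each line. PSMB2, a beta subunit without a cutting site, had 2.59 and 2.97 CPM at day 9, against 10.3 and 12.3 CPM at day 0, in mutant cells. In wild-type cells PSMB2 had 1.71 and 1.49 CPM at day 9, against 8.24 and 10.8 CPM at day 0. All day 9 libraries lay below all day 0 libraries. PSMB2 had log2 changes of -2.02 (SE 0.39, edgeR adjusted p = 2.60e-04) in mutant cells and -2.57 (SE 0.42, edgeR adjusted p = 2.26e-05) in wild-type cells. Its 4 sgRNAs all decreased in both lines. PSMA1, an alpha subunit, had 3.81 and 2.94 CPM at day 9, against 11.1 and 10.2 CPM at day 0, in mutant cells. In wild-type cells PSMA1 had 3.46 and 1.58 CPM at day 9, against 9.44 and 11.1 CPM at day 0. Day 9 and day 0 libraries did not overlap. PSMA1 had log2 changes of -1.68 (SE 0.39, edgeR adjusted p = 0.00273) in mutant cells and -2.03 (SE 0.41, edgeR adjusted p = 4.57e-04) in wild-type cells. PSMA5, another alpha subunit, had 7.79 and 4.68 CPM at day 9, against 19.9 and 17.8 CPM at day 0, in mutant cells. In wild-type cells PSMA5 had 3.39 and 5.21 CPM at day 9, against 14.6 and 17.3 CPM at day 0. Again every day 9 library lay under every day 0 library. PSMA5 had log2 changes of -1.63 (SE 0.28, edgeR adjusted p = 4.00e-05) in mutant cells and -1.89 (SE 0.29, edgeR adjusted p = 6.28e-06) in wild-type cells. 

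The catalytic subunits had unlike summed changes, and the differences between them were not tested. PSMB5, which carries the chymotrypsin-like site that proteasome inhibitors used in the clinic block, had 3.87 and 6.09 CPM at day 9, against 16.4 and 15.1 CPM at day 0, in mutant cells. In wild-type cells PSMB5 had 6.89 and 5.34 CPM at day 9, against 15.2 and 17.7 CPM at day 0. No day 9 library reached a day 0 library. PSMB5 had log2 changes of -1.63 (SE 0.28, edgeR adjusted p = 3.34e-05) in mutant cells and -1.43 (SE 0.28, edgeR adjusted p = 2.51e-04) in wild-type cells. PSMB6, which carries the caspase-like site, had 13.4 and 13.3 CPM at day 9, against 26 and 24.1 CPM at day 0, in mutant cells. In wild-type cells PSMB6 had 16 and 11.5 CPM at day 9, against 25.6 and 23.0 CPM at day 0. The days did not overlap in either line. PSMB6 had log2 changes of -0.90 (SE 0.18, edgeR adjusted p = 4.54e-04) in mutant cells and -0.82 (SE 0.18, edgeR adjusted p = 0.00169) in wild-type cells. PSMB7, which carries the trypsin-like site, had 41.0 and 44.4 CPM at day 9, against 39.8 and 41.6 CPM at day 0, in mutant cells. In wild-type cells PSMB7 had 41.3 and 44.0 CPM at day 9, against 39.8 and 41.0 CPM at day 0. These values overlapped in mutant cells and lay slightly higher at day 9 in wild-type cells. PSMB7 had log2 changes of 0.07 (SE 0.11, edgeR adjusted p = 0.841) in mutant cells and 0.08 (SE 0.11, edgeR adjusted p = 0.774) in wild-type cells. PSMB7 was not called, although the strongest of its 5 sgRNAs changed by -1.98 in mutant cells and -2.66 in wild-type cells, and that sgRNA was called lower in each line. How far each sgRNA lowered transcription of its gene was not measured. The absence of a call therefore does not show that a gene is not needed. PSMB3 and PSMB4, beta subunits without a cutting site, had no sgRNA called lower in either line. PSMB4 had 1 sgRNA called higher in wild-type cells, with a log2 change of 1.22 (edgeR adjusted p = 0.0209). All 6 PSMA2 sgRNAs lie within 1 kb of an sgRNA of MRPL32, and all 5 of PSMA7 within 1 kb of an sgRNA of SS18L1, so the loss cannot be assigned to the proteasome gene by position alone.

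Within the core, PSMA5, PSMA7, PSMB2 and PSMB5 passed the adjusted p in both lines under each alternative in which they were tested, but PSMA7 was not called in either line when an absolute log2 change over 1 was added. Without mutant day 0 replicate 1, PSMA1 and PSMB1 lost their call in mutant cells, with log2 changes of -1.61 and -0.45. PSMB6 lost its call in wild-type cells without wild-type day 0 replicate 1 (log2 change -0.74) and when its 2 promoter sets were pooled (log2 change -0.27, edgeR adjusted p = 0.152). PSMB1 lost it in mutant cells without either mutant day 0 library, and in wild-type cells without wild-type day 9 replicate 2 or wild-type day 0 replicate 1. Without wild-type day 9 replicate 1 the log2 change of PSMA1 in wild-type cells was -2.70. PSMA2 lost it in wild-type cells in 9 of 18 alternatives.

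**Figure D2:**
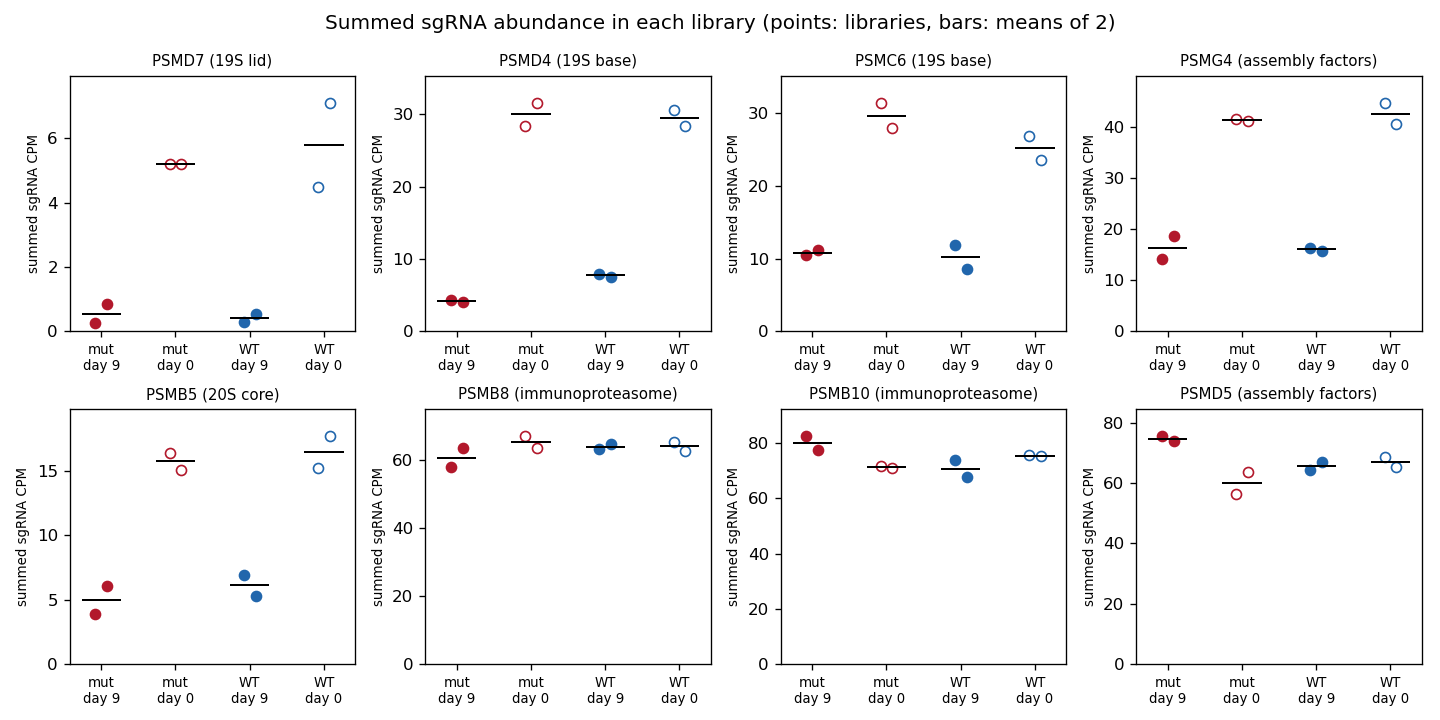
Summed sgRNA abundance (CPM, linear axis from 0) of 8 genes in each library, with mutant (mut) day 9 and day 0 to the left of wild-type (WT) day 9 and day 0; points are libraries and bars means of 2. The day 9 points of PSMD7, PSMD4, PSMC6, PSMG4 and PSMB5 lie below their day 0 points in both lines, while those of PSMB8 and PSMB10 stay at a similar level and those of PSMD5 are higher in mutant cells.

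In the lid, 4 of 8 genes fell in each line, with a median log2 change of -0.36 in mutant cells and -0.45 in wild-type cells. PSMD7, the partner with which the deubiquitinase PSMD14 works, had 0.250 and 0.862 CPM at day 9, against 5.19 and 5.19 CPM at day 0, in mutant cells. In wild-type cells PSMD7 had 0.300 and 0.549 CPM at day 9, against 4.49 and 7.08 CPM at day 0. Its 3 sgRNAs together gave 9 and 81 counts in mutant day 9 libraries, against 356 and 673 at day 0, and 13 and 25 counts in wild-type day 9 libraries, against 299 and 418 at day 0. All day 9 values were far under all day 0 values. PSMD7 had log2 changes of -3.02 (SE 0.77, edgeR adjusted p = 0.0067) in mutant cells and -3.75 (SE 0.86, edgeR adjusted p = 0.00214) in wild-type cells. In the edgeR fit of counts summed over all sgRNAs this was the largest loss of any member in either line, with the largest SE. PSMD11, a scaffold subunit that helps hold lid, base and core together, had 20.7 and 17.6 CPM at day 9, against 26.1 and 31.4 CPM at day 0, in mutant cells. In wild-type cells PSMD11 had 17.6 and 19.5 CPM at day 9, against 34.8 and 25.9 CPM at day 0. The days did not overlap. PSMD11 had log2 changes of -0.59 (SE 0.16, edgeR adjusted p = 0.0146) in mutant cells and -0.71 (SE 0.17, edgeR adjusted p = 0.00248) in wild-type cells. PSMD6, another lid scaffold subunit, had 4.06 and 6.41 CPM at day 9, against 12.1 and 11.3 CPM at day 0, in mutant cells. In wild-type cells PSMD6 had 7.19 and 4.17 CPM at day 9, against 11.4 and 9.15 CPM at day 0. The groups were apart in each line, but the SE was large. PSMD6 had log2 changes of -1.13 (SE 0.33, edgeR adjusted p = 0.0242) in mutant cells and -0.86 (SE 0.34, edgeR adjusted p = 0.128) in wild-type cells. PSMD14, the deubiquitinase itself, had 26.7 and 32.8 CPM at day 9, against 39.5 and 37.0 CPM at day 0, in mutant cells. In wild-type cells PSMD14 had 22.1 and 24.1 CPM at day 9, against 31.0 and 37.8 CPM at day 0. Both mutant day 9 values lay under both day 0 values, as did the wild-type ones. PSMD14 had log2 changes of -0.36 (SE 0.14, edgeR adjusted p = 0.124) in mutant cells and -0.57 (SE 0.14, edgeR adjusted p = 0.00383) in wild-type cells. 

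Lid calls were lost when 1 day 0 library was left out, as were calls over all genes tested. Such a fit leaves 1 library in that group. In mutant cells every lid gene called (PSMD6, PSMD7, PSMD8 and PSMD11) lost its call without mutant day 0 replicate 2. Without mutant day 0 replicate 1 or 2, PSMD6 changed by -1.09 or -1.18 in mutant cells, against -1.13 with all libraries. PSMD8 changed by -0.34 or -0.38 in the same fits, against -0.36. In wild-type cells PSMD11 changed by -0.48 without wild-type day 0 replicate 1, against -0.71. PSMD14 changed by -0.43 in wild-type cells without wild-type day 0 replicate 2, against -0.57. PSMD7 itself lost its call in mutant cells without either mutant day 0 library and in wild-type cells without wild-type day 0 replicate 2, with log2 changes of -3.04, -3.04 and -3.39. Its size depended on a day 9 library too: without mutant day 9 replicate 2 the log2 change in mutant cells was -4.36, and over all left-out libraries it ranged from -4.36 to -2.59 in mutant cells and from -4.26 to -3.39 in wild-type cells. PSMD11 lost its call in mutant cells without mutant day 9 replicate 2 or mutant day 0 replicate 2, and in wild-type cells without wild-type day 0 replicate 1. PSMD6 lost its call in mutant cells without mutant day 9 replicate 1 and without any single day 0 library of either line. PSMD14 lost its call in wild-type cells without wild-type day 0 replicate 2. The sgRNAs of PSMD13 all lie within 1 kb of an sgRNA of SIRT3. SHFM1, the older symbol of SEM1, the smallest lid subunit, is no member by name. SHFM1, counted among the related genes, had 26.4 and 25.9 CPM at day 9, against 65.4 and 68.0 CPM at day 0, in mutant cells. In wild-type cells SHFM1 had 24.3 and 29.5 CPM at day 9, against 55.8 and 61.6 CPM at day 0. All day 9 libraries were under all day 0 libraries. SHFM1 had log2 changes of -1.35 (SE 0.11, edgeR adjusted p = 3.21e-11) in mutant cells and -1.13 (SE 0.11, edgeR adjusted p = 2.08e-09) in wild-type cells. 

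In the base, 3 of 10 genes fell in each line, the same 3, with a median log2 change of -0.25 in mutant cells and -0.28 in wild-type cells. Of the 6 ATPases, PSMC1 and PSMC6 fell, and of the 4 other subunits PSMD4. PSMD4, a ubiquitin receptor, had 4.29 and 4.06 CPM at day 9, against 28.5 and 31.5 CPM at day 0, in mutant cells. In wild-type cells PSMD4 had 7.93 and 7.54 CPM at day 9, against 30.6 and 28.4 CPM at day 0. All day 9 libraries lay below all day 0 libraries, and both mutant day 9 values lay below both wild-type day 9 values. PSMD4 had log2 changes of -2.85 (SE 0.20, edgeR adjusted p = 4.48e-13) in mutant cells and -1.93 (SE 0.19, edgeR adjusted p = 1.03e-09) in wild-type cells. All 5 sgRNAs decreased in both lines. PSMC6, an ATPase of the unfolding ring, had 10.5 and 11.1 CPM at day 9, against 31.3 and 28.0 CPM at day 0, in mutant cells. In wild-type cells PSMC6 had 11.8 and 8.61 CPM at day 9, against 26.9 and 23.6 CPM at day 0. Here too the days did not overlap. PSMC6 had log2 changes of -1.45 (SE 0.19, edgeR adjusted p = 2.75e-07) in mutant cells and -1.30 (SE 0.19, edgeR adjusted p = 2.47e-06) in wild-type cells. PSMC1, another ATPase, had 13.3 and 18.1 CPM at day 9, against 23.4 and 23.0 CPM at day 0, in mutant cells. In wild-type cells PSMC1 had 16.4 and 15.1 CPM at day 9, against 25.4 and 23.5 CPM at day 0. Its day 9 values were all under its day 0 values, by less. PSMC1 had log2 changes of -0.55 (SE 0.18, edgeR adjusted p = 0.0442) in mutant cells and -0.64 (SE 0.18, edgeR adjusted p = 0.0155) in wild-type cells. PSMC1 lost its call in mutant cells without mutant day 9 replicate 1 (log2 change -0.35) and without any single day 0 library of either line, and in wild-type cells without wild-type day 9 replicate 2 or either wild-type day 0 library. ADRM1, a further ubiquitin receptor, had no sgRNA called lower. ADRM1 had log2 changes of 0.04 (SE 0.12, edgeR adjusted p = 0.931) in mutant cells and -0.11 (SE 0.12, edgeR adjusted p = 0.702) in wild-type cells. 

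The remaining constitutive subunits had smaller summed changes. Among the alpha subunits that fell in both lines, PSMA7 had log2 changes of -0.63 in mutant and -0.67 in wild-type cells. The alpha subunit PSMA4, called in wild-type cells, had -0.43 in mutant and -0.84 in wild-type cells, and PSMA3, likewise called in wild-type cells, had -0.63 in mutant and -0.76 in wild-type cells. For PSMA6, called in mutant cells, the values were -0.54 in mutant and -0.52 in wild-type cells, with an edgeR adjusted p of 0.0526 in wild-type cells. The beta subunit PSMB1 had -0.46 in mutant and -0.46 in wild-type cells, both called. In the lid, PSMD8 had -0.36 in mutant and -0.23 in wild-type cells, called in mutant cells, and PSMD13 -0.16 in mutant and -0.32 in wild-type cells, called in wild-type cells. PSMD12 had -0.35 in mutant and -0.17 in wild-type cells, neither called. Several of these calls were lost in some of the alternatives: that of PSMA6 in mutant cells in 6 of 19, that of PSMD8 in mutant cells in 4 of 19, that of PSMA3 in wild-type cells in 5 of 18 and that of PSMD13 in wild-type cells in 8 of 18. In the base, the ATPases PSMC2, PSMC3 and PSMC5 were not called, with PSMC3 at -0.29 in mutant and -0.28 in wild-type cells. The large scaffold subunits PSMD1 and PSMD2, onto which ubiquitin receptors and shuttle proteins dock, were not called from their summed counts either. PSMD2 had -0.21 in mutant and -0.22 in wild-type cells and PSMD1 had 0.02 in mutant and -0.05 in wild-type cells. The strongest sgRNA changed by -4.14 and -4.41 for PSMD2 and by -3.27 and -3.64 for PSMD1, in mutant and wild-type cells. With sgRNAs averaged on the log2 scale and tested with limma, PSMD2 was called at -1.55 in mutant and -1.87 in wild-type cells. In that test PSMD1 had -0.74 in mutant and -0.87 in wild-type cells, neither called. All 5 sgRNAs of PSMC5 lie within 1 kb of sgRNAs of FTSJ3.

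In several base and lid genes the most abundant sgRNA did not decrease while others of the same gene did, and the summed count was then not called or changed little. PSMC4, an ATPase named here after its values were seen, is the clearest case. Its most abundant sgRNA had 14.3 and 13.6 CPM at day 9, against 13.1 and 11.2 CPM at day 0, in mutant cells, and 13.3 and 14.7 CPM at day 9, against 11.5 and 12.4 CPM at day 0, in wild-type cells. The strongest of its 5 sgRNAs had 0.0762 and 0.00972 CPM at day 9, against 3.24 and 1.95 CPM at day 0, in mutant cells, and 0.0632 and 0.100 CPM at day 9, against 1.02 and 2.72 CPM at day 0, in wild-type cells. The abundant sgRNA made up 67.6% of the PSMC4 counts at day 0, and the strongest nearly vanished from every day 9 library. The abundant sgRNA changed by 0.20 in mutant cells and 0.23 in wild-type cells. The other 4 sgRNAs changed by -2.48 to -6.30 in mutant cells, where 3 were called, and by -3.68 to -4.48 in wild-type cells, where all 4 were. The sum over all 5 sgRNAs was not called. PSMC4 had log2 changes of -0.37 (SE 0.19, edgeR adjusted p = 0.305) in mutant cells and -0.28 (SE 0.19, edgeR adjusted p = 0.452) in wild-type cells. Without the abundant sgRNA, the log2 change of PSMC4 was -4.49 in mutant cells (edgeR adjusted p = 6.74e-07) and -4.01 in wild-type cells (edgeR adjusted p = 5.08e-06). In the same setting PSMD7 changed by -3.21 in mutant and -3.31 in wild-type cells. The sgRNA left out was the one with the highest mean over all 8 libraries, day 9 included. That choice favours leaving out an sgRNA that did not fall, so these adjusted p-values are no independent support.

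The pattern held for many constitutive subunits, meaning the 32 genes of core, base and lid. Their most abundant sgRNA had a median log2 change of -0.05 in mutant cells and -0.08 in wild-type cells, and it stayed above -0.5 in 23 of 32 genes in each line. Their strongest sgRNA had a median of -3.26 in mutant cells and -3.48 in wild-type cells, while the median for the strongest sgRNA over all genes tested was -0.33 in mutant cells and -0.36 in wild-type cells. No such value over all genes was computed for the most abundant sgRNA. The most abundant sgRNA was chosen here by its day 0 abundance, which also enters the change, and the strongest by the change itself. These values are therefore a description and no test. At least 1 sgRNA, not always the same one, was called lower in each line for 25 of the 32 genes, against a background of 12.3% of all genes tested. The other 7 were PSMA1, PSMA2, PSMB3, PSMB4, PSMD1, PSMD8 and ADRM1. When a gene's sgRNAs were averaged on the log2 scale and tested with limma, 27 of 46 members fell in mutant cells and 27 in wild-type cells, against 9.97% of all genes in mutant and 10.7% in wild-type cells. All 8 lid genes and 6 of 10 base genes passed that test in each line. Among them was PSMD3, a lid scaffold subunit, whose summed log2 change in mutant cells had the opposite sign (0.19) to its mean over sgRNAs (-0.86, limma adjusted p = 0.003).

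**Figure D3:**
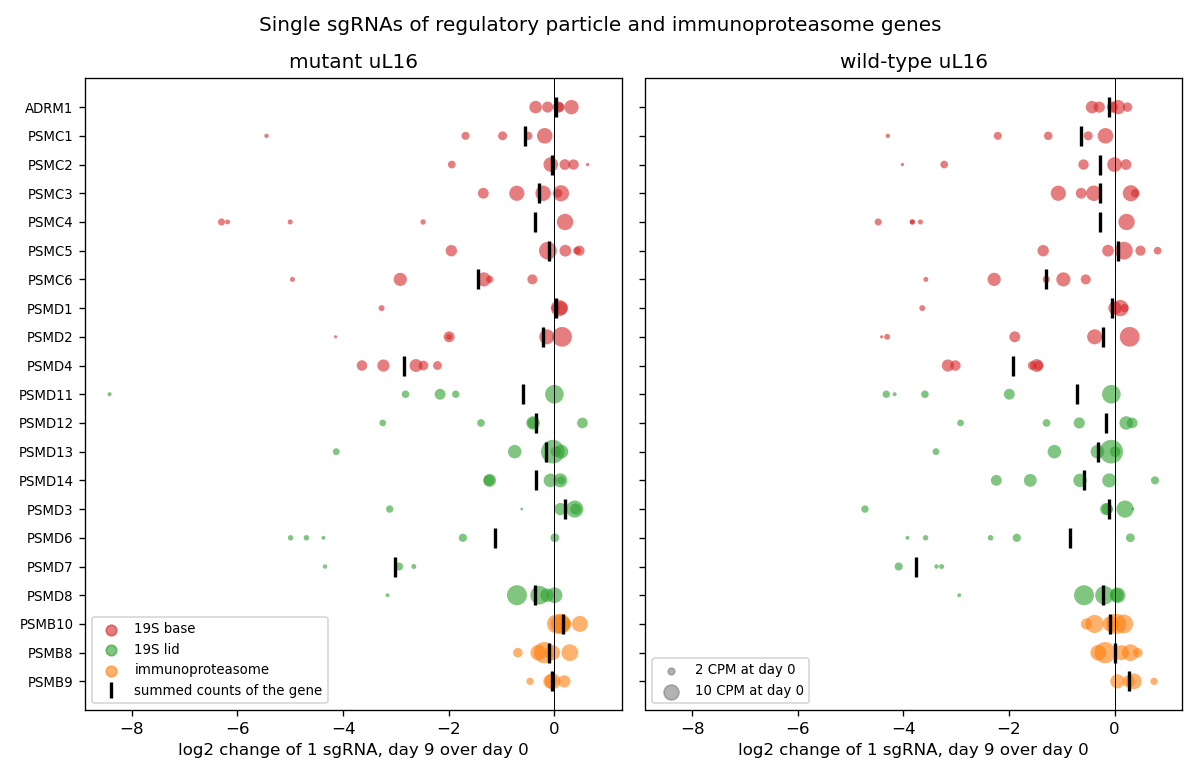
Log2 change, day 9 over day 0, of each primary sgRNA of the base, lid and immunoproteasome genes in mutant cells (left) and wild-type cells (right); circle area is proportional to day 0 CPM and the black tick is the change of the gene's summed counts. For PSMC4, PSMD2, PSMD3 and PSMD11 the tick lies beside a large circle near 0 while smaller circles lie far to the left; circles of PSMB8, PSMB9 and PSMB10 lie near 0.

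The sgRNAs of constitutive subunits were already scarce at day 0. Their median was 4.83 CPM over 156 sgRNAs, with 4.74 CPM in the core, 4.99 CPM in the base and 5.13 CPM in the lid. Assembly factors had a median of 8.26 CPM and immunoproteasome subunits 11.2 CPM, against 8.41 CPM for control sgRNAs and 8.52 CPM for all sgRNAs of tested genes. The shortfall was present in each day 0 library: the constitutive median was 4.81 and 4.88 CPM in the mutant libraries and 4.57 and 4.83 CPM in the wild-type libraries, against control medians between 8.33 and 8.47 CPM. Between 113 and 121 of the 156 sgRNAs lay under the control median (72.4 to 77.6%). sgRNAs called lower in both lines had a median of 3.07 CPM at day 0 (n = 40), and the others 5.37 CPM (n = 116). Across the 156 sgRNAs the day 0 CPM of the wild-type line had a Spearman rho of 0.619 with the change in mutant cells, and the day 0 CPM of the mutant line 0.653 with the change in wild-type cells. No library was shared within either pair of measures, but both carry the composition of the sgRNA pool. The pool before transduction was not analysed here, so an early loss and a low share in the pool cannot be told apart.

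**Figure D4:**
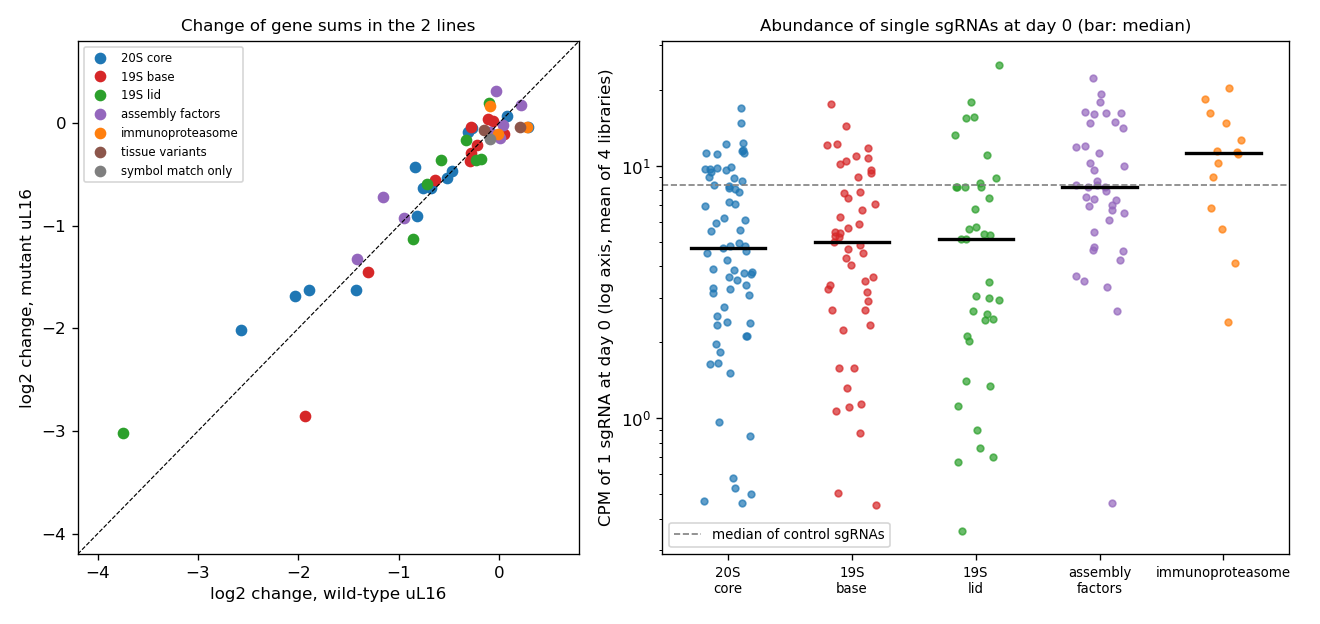
Left, log2 change of the summed counts of each of the 46 members in mutant cells (vertical) against wild-type cells (horizontal), with the line of equal change dashed; PSMD4 lies below that line. Right, abundance of each primary sgRNA at day 0 (CPM, log axis, mean of 4 libraries) with the median of each part as a bar: 4.74 CPM in the core, 4.99 in the base, 5.13 in the lid, 8.26 for assembly factors and 11.2 for the immunoproteasome, against 8.41 for control sgRNAs (dashed).

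Distance from a gene's strongest sgRNA went with the size of the loss. Among constitutive genes, sgRNAs within 50 bp of the gene's strongest sgRNA (n = 50) had a median log2 change of -1.38 in mutant cells and -1.54 in wild-type cells, and 16 were called lower in both lines. Those over 50 and up to 150 bp away (n = 13) had medians of -0.35 in mutant and -0.94 in wild-type cells, and those over 150 and up to 300 bp away (n = 27) -0.22 in mutant and -0.55 in wild-type cells. Beyond 300 bp (n = 34) the medians were 0.09 in mutant and 0.10 in wild-type cells, and 0 were called lower in both lines. The strongest sgRNA was chosen from these changes, so the distances describe how strong sgRNAs cluster and are no test. A separate second promoter set was present for PSMB6, PSMB9 and PSMG3. Its log2 changes were -0.06 in mutant and 0.02 in wild-type cells for PSMB6, -0.0042 in mutant and 0.09 in wild-type cells for PSMB9, and 0.03 in mutant and -0.11 in wild-type cells for PSMG3. None was called.

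No loss of immunoproteasome sgRNAs was detected. In mutant and in wild-type cells 0 of 3 genes fell by edgeR, where 8.53% and 8.7% of all genes tested did. The median log2 change was -0.04 in mutant cells and -0.0027 in wild-type cells. At an unadjusted p under 0.05, 0 passed in mutant cells and 1 in wild-type cells (PSMB9, higher). None of their 14 sgRNAs was called in either line, where 5.34% and 5.48% of all sgRNAs of tested genes were lower. With so few genes and sgRNAs, these counts are near the background. PSMB8, the induced counterpart of PSMB5, had 58.0 and 63.3 CPM at day 9, against 66.8 and 63.4 CPM at day 0, in mutant cells. In wild-type cells PSMB8 had 63.1 and 64.5 CPM at day 9, against 65.3 and 62.5 CPM at day 0. Mutant day 9 values lay just under day 0 values, and wild-type values overlapped. PSMB8 had log2 changes of -0.10 (SE 0.09, edgeR adjusted p = 0.664) in mutant cells and -0.0027 (SE 0.09, edgeR adjusted p = 0.993) in wild-type cells. The 95% intervals were -0.28 to 0.08 for mutant and -0.19 to 0.18 for wild-type cells, which do not reach the changes of PSMB5. PSMB9, the induced counterpart of PSMB6, had 34.6 and 31.3 CPM at day 9, against 36.1 and 31.5 CPM at day 0, in mutant cells. In wild-type cells PSMB9 had 43.1 and 33.5 CPM at day 9, against 34.4 and 28.7 CPM at day 0. Day 9 and day 0 overlapped in both lines. PSMB9 had log2 changes of -0.04 (SE 0.14, edgeR adjusted p = 0.938) in mutant cells and 0.28 (SE 0.14, edgeR adjusted p = 0.255) in wild-type cells. PSMB10, the induced counterpart of PSMB7, had 82.3 and 77.6 CPM at day 9, against 71.6 and 70.8 CPM at day 0, in mutant cells. In wild-type cells PSMB10 had 73.8 and 67.6 CPM at day 9, against 75.5 and 75.2 CPM at day 0. Day 9 was higher in mutant cells and lower in wild-type cells, without overlap in either. PSMB10 had log2 changes of 0.17 (SE 0.08, edgeR adjusted p = 0.307) in mutant cells and -0.09 (SE 0.08, edgeR adjusted p = 0.62) in wild-type cells. The 4 primary sgRNAs of PSMB9 lie within 1 kb of sgRNAs of TAP1, and 3 of the 5 of PSMB8 within 1 kb of second-promoter sgRNAs of PSMB9. PSMA8, an alpha subunit of the testis, and PSMB11, a beta subunit of the thymus, were not called in either line. PSMA8 had log2 changes of -0.04 (SE 0.10, edgeR adjusted p = 0.912) in mutant cells and 0.21 (SE 0.10, edgeR adjusted p = 0.264) in wild-type cells. PSMB11 had log2 changes of -0.06 (SE 0.09, edgeR adjusted p = 0.819) in mutant cells and -0.15 (SE 0.09, edgeR adjusted p = 0.39) in wild-type cells. For PSMC3IP, the values were -0.15 (SE 0.09, edgeR adjusted p = 0.449) in mutant cells and -0.09 (SE 0.09, edgeR adjusted p = 0.669) in wild-type cells.

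Of 5 assembly chaperones of the core, 3 fell in each line (PSMG3, PSMG4 and POMP), while 0 of 3 base chaperones fell by edgeR. Over all genes tested 8.53% fell in mutant and 8.7% in wild-type cells, so 0 of 3 is near the background. The difference between the 2 classes was not tested. PSMG4, which pairs with PSMG3 at the alpha ring, had 14.1 and 18.6 CPM at day 9, against 41.6 and 41.1 CPM at day 0, in mutant cells. In wild-type cells PSMG4 had 16.3 and 15.8 CPM at day 9, against 44.6 and 40.5 CPM at day 0. The days did not overlap in either line. PSMG4 had log2 changes of -1.33 (SE 0.14, edgeR adjusted p = 8.96e-09) in mutant cells and -1.41 (SE 0.15, edgeR adjusted p = 3.45e-09) in wild-type cells. PSMG3, its partner, had 30.2 and 24.9 CPM at day 9, against 44.9 and 45.7 CPM at day 0, in mutant cells. In wild-type cells PSMG3 had 19.4 and 27.2 CPM at day 9, against 54.8 and 49.1 CPM at day 0. All day 9 libraries lay below all day 0 libraries. PSMG3 had log2 changes of -0.72 (SE 0.14, edgeR adjusted p = 1.74e-04) in mutant cells and -1.16 (SE 0.14, edgeR adjusted p = 6.96e-08) in wild-type cells. POMP, the factor that guides the beta ring and is then degraded, had 21.4 and 16.6 CPM at day 9, against 38.1 and 33.5 CPM at day 0, in mutant cells. In wild-type cells POMP had 18.3 and 14.5 CPM at day 9, against 32.7 and 30.6 CPM at day 0. Its day 9 and day 0 libraries were likewise apart. POMP had log2 changes of -0.92 (SE 0.16, edgeR adjusted p = 4.34e-05) in mutant cells and -0.95 (SE 0.16, edgeR adjusted p = 3.19e-05) in wild-type cells. PSMG1 and PSMG2, the other chaperone pair of the alpha ring, were not called, and the sgRNAs of PSMG2 lie within 1 kb of sgRNAs of CEP76. PSMG1 had log2 changes of -0.08 (SE 0.10, edgeR adjusted p = 0.768) in mutant cells and -0.08 (SE 0.10, edgeR adjusted p = 0.725) in wild-type cells. PSMG2 had log2 changes of -0.14 (SE 0.12, edgeR adjusted p = 0.619) in mutant cells and 0.01 (SE 0.12, edgeR adjusted p = 0.973) in wild-type cells. 

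Among the base chaperones, PSMD5 had 75.4 and 73.8 CPM at day 9, against 56.5 and 63.7 CPM at day 0, in mutant cells. In wild-type cells PSMD5 had 64.3 and 67.0 CPM at day 9, against 68.7 and 65.4 CPM at day 0. Both mutant day 9 libraries were above both day 0 libraries, whereas the wild-type libraries overlapped. PSMD5 had log2 changes of 0.31 (SE 0.09, edgeR adjusted p = 0.0192) in mutant cells and -0.03 (SE 0.09, edgeR adjusted p = 0.909) in wild-type cells. All 5 sgRNAs had a positive change in mutant cells, but none was called singly. The rise lost its call with limma, without the most abundant sgRNA, and without mutant day 9 replicate 1, mutant day 9 replicate 2 or mutant day 0 replicate 1; in the last of these its log2 change was 0.23. PSMD9, another base chaperone, was higher in all day 9 libraries than in all day 0 libraries without passing the test. PSMD9 had log2 changes of 0.17 (SE 0.09, edgeR adjusted p = 0.325) in mutant cells and 0.22 (SE 0.09, edgeR adjusted p = 0.138) in wild-type cells. PSMD10 overlapped between days in both lines. PSMD10 had log2 changes of -0.02 (SE 0.10, edgeR adjusted p = 0.964) in mutant cells and 0.05 (SE 0.10, edgeR adjusted p = 0.867) in wild-type cells. PSMG3 lost its call in mutant cells without its most abundant sgRNA and when all promoters were pooled.

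The mutant and wild-type lines were then compared by the difference of their changes, mutant minus wild-type. This contrast asks whether the change of a gene's sgRNAs differs between the lines with mutant and wild-type uL16. By edgeR 0 of 46 members passed, where 0.0159% of all genes did. At an unadjusted p under 0.05 there were 4 of 46, against 5.57% of all genes, and DESeq2 called 1, PSMD4. The difference was positive for 25 members and negative for 21. PSMD4, whose library values are given above, had a difference of -0.92 (SE 0.26, 95% interval -1.46 to -0.38), a larger loss in mutant cells. All 5 of its sgRNAs had a negative difference. Its unadjusted p was 0.00154 and its edgeR adjusted p 0.717, while DESeq2 gave an adjusted p of 0.0324. Over 18 alternatives the adjusted p ranged from 0.0324 to 1.0 and the difference from -0.99 to -0.67. The other 3 had positive differences. For PSMD5 it was 0.34 (95% interval 0.08 to 0.60, unadjusted p = 0.0114, edgeR adjusted p = 0.883). For PSMG3 it was 0.44 (95% interval 0.04 to 0.83, unadjusted p = 0.031, edgeR adjusted p = 0.883). For PSMB10 it was 0.26 (95% interval 0.02 to 0.50, unadjusted p = 0.0378, edgeR adjusted p = 0.883). Intervals were wide for the genes with the largest losses: for PSMD7 the difference was 0.73 with a 95% interval of -1.72 to 3.18. No single sgRNA of the 225 passed in the difference, where 0 of all sgRNAs of tested genes passed too.

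Among 30 related genes that act around the proteasome, 2 fell in mutant cells (SHFM1 and UBA1) and 3 in wild-type cells (SHFM1, UBA1 and UBA6), shares near the background of 8.53% of all genes in mutant and 8.7% in wild-type cells. UBA1, the main ubiquitin-activating enzyme, had 15.9 and 10.8 CPM at day 9, against 32.6 and 30.8 CPM at day 0, in mutant cells. In wild-type cells UBA1 had 11.7 and 11.2 CPM at day 9, against 31.0 and 32.1 CPM at day 0. No day 9 value reached a day 0 value. UBA1 had log2 changes of -1.27 (SE 0.17, edgeR adjusted p = 9.39e-07) in mutant cells and -1.46 (SE 0.18, edgeR adjusted p = 8.22e-08) in wild-type cells. UBA6, a further ubiquitin-activating enzyme, passed in wild-type cells. UBA6 had log2 changes of -0.31 (SE 0.13, edgeR adjusted p = 0.199) in mutant cells and -0.48 (SE 0.14, edgeR adjusted p = 0.0169) in wild-type cells. VCP, the unfoldase that hands many substrates to the proteasome, was not called from the sum of its 4 sgRNAs. VCP had log2 changes of -0.61 (SE 0.27, edgeR adjusted p = 0.219) in mutant cells and -0.74 (SE 0.28, edgeR adjusted p = 0.0986) in wild-type cells. Its most abundant sgRNA held 65.4% of its day 0 counts and changed by 0.01 in mutant and -0.17 in wild-type cells, while 2 of the 4 were called lower in each line and the strongest changed by -5.30 in mutant and -5.60 in wild-type cells. By edgeR, none of the 5 activators and inhibitors of the core (PSME1 to PSME4 and PSMF1), the 6 proteins that bind the proteasome, the 5 shuttle proteins and the 6 regulators of its expression or activity fell in either line. Their median log2 changes were -0.0001, 0.06, -0.16 and -0.01 in mutant cells, and -0.05, 0.11, 0.05 and -0.10 in wild-type cells. NFE2L1 and DDI2, which restore proteasome genes when the proteasome is inhibited, were among those regulators.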

How the data were processed

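The deposited values are read counts of each sgRNA in each library, without normalization. Per the file headers, the authors kept bases 1 to 39 of each read and matched them, in forward orientation, to the human CRISPRi version 2 library. The submitters' processing notes name hg38; the program used for counting is not named in what was used here. Of 209070 sgRNAs listed, those with a mean count of at least 20 over the 8 libraries were kept. Per gene, counts of the primary-promoter sgRNAs were added up where there were at least 3, giving 95977 sgRNAs and 18903 genes. Second-promoter sgRNAs were fitted apart.

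Counts were scaled by TMM and fitted in R 4.3.3 with edgeR 4.0.16 (glmQLFit, glmQLFTest), a single fit to the 8 libraries with a mean for each group. Tested were day 9 over day 0 within a line and the difference of these, mutant minus wild-type. Benjamini-Hochberg adjustment was over all genes, or over all sgRNAs for the fit of single sgRNAs. The SE was taken from the change and its test statistic. The fit of gene sums was tried on counts simulated from its own fitted spread, with known changes in mutant day 9 only. Disagreeing sgRNAs of a gene and the difference between lines were not simulated. Day 9 libraries ranged in depth from 39233340 to 102693061 counts and day 0 libraries from 65249002 to 143585751, and depth sets counting error only. Alternatives were DESeq2 1.42.0, RLE size factors, scaling to control sgRNAs, a filter at a mean of 100 or none, limma 3.58.1 on mean log2 CPM (prior count 2), leaving out each gene's most abundant sgRNA, pooled promoters, leaving out sgRNAs within 1 kb of another gene's, an added absolute log2 change over 1, fitting 1 line only, a replicate block, and leaving out each library. The count of genes with at least 2 lower sgRNAs was added after the data were seen.

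The members, their grouping and the list of 30 related genes were chosen with earlier results of these data known; 1 further gene is not reported here. Named genes are, per line, the 6 members with the largest fall among those called, the 2 with the smallest p in each group, members that rose, members with an unadjusted p under 0.05 in the difference, and the 3 catalytic subunits with their immunoproteasome counterparts. Other members are named to account for the whole list. Over genes, replicate 1 minus replicate 2 at day 9 had a Pearson r of 0.047 (mutant) and 0.023 (wild-type) with that at day 0. So low a correlation cannot show whether same-numbered libraries share a culture. The main fit did not pair them.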

Additional observations from a re-analysis of the deposited data

How the results depend on the processing

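Calls rest on 2 libraries per group. Leaving out a library changed the share of all genes tested that fell, as well as the counts of members. When a library was left out, genes that fell in mutant cells ranged from 11 to 20 and in wild-type cells from 14 to 21, core genes that fell in mutant cells from 5 to 10 with a core median between -0.79 and -0.48, and lid genes from 0 to 4, while lid genes in wild-type cells ranged from 1 to 4. An added log2 change over 1 left 9 genes in mutant cells (4 core, 2 base, 2 lid and 1 assembly factor). It left 9 in wild-type cells (4 core, 2 base, 1 lid and 2 assembly factors). Of all 18903 genes tested, 597 in mutant and 593 in wild-type cells had a log2 change under -1, called or not. With limma on mean log2 CPM 27 genes fell in each line, and the medians in mutant cells were -1.16 (core), -1.12 (base), -0.91 (lid), -0.15 (immunoproteasome) and -0.21 (assembly), and in wild-type cells -1.45 (core), -1.49 (base), -0.95 (lid) and 0.067 (immunoproteasome), with 6 base and 8 lid genes lower in each line. PSMD3 turned to -0.86 in mutant cells. Without the most abundant sgRNA the medians in mutant cells were -1.05 (core) and -0.57 (base). In wild-type cells they were -1.36 (core), -0.73 (base), -0.69 (lid) and 0.10 (immunoproteasome). In this setting 6 base genes were lower in each line, where 8.6% of all genes fell in mutant and 8.84% in wild-type cells. The sgRNA was chosen by its mean over all 8 libraries, day 9 included, which favours leaving out an sgRNA that did not fall. At a mean count of at least 100, 40 of 46 members were tested, 2 lid genes fell in each line and the lid median in wild-type cells was -0.24. That mean is over all 8 libraries, day 9 included, so the filter favours leaving out sgRNAs that fell. Without sgRNAs near another gene the assembly median was -0.41 in mutant and -0.52 in wild-type cells, and the immunoproteasome median in wild-type cells -0.10. DESeq2 passed 1 member in the difference between lines. With the replicate block 18 members fell in mutant and 21 in wild-type cells, where same-numbered libraries had correlations of 0.047 and 0.023. Depth limits the most depleted sgRNAs, whose day 9 counts are near 0. Where no value above shows it, the cause was not tested.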
